A study of Mus musculus with 6 samples.

Results

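The genes described here are 43 genes used as markers of macrophages and dendritic cells, measured in HDAC2 KO and control mouse colon. They were taken by gene symbol from the array's annotation, which gave 74 probe sets out of 45037 on the array that are not controls, and 43 genes out of 18193 with a symbol. Of the 74 probe sets, 11 carry a suffix (_s_at or _x_at) that marks probes able to bind several transcripts, and these are given apart from the other 63. The other 63 are said below to bind 1 transcript, which means only that they lack these suffixes. Some of them carry the suffix _a_at, and how many transcripts each binds was not tested. A further probe set that lists Csf2rb together with Csf2rb2 was not used. The first group, HDAC2 KO, held 3 colon samples of mice whose floxed Hdac2 gene, encoding a histone deacetylase, was deleted by a Cre recombinase under the villin promoter. The second, control, held 3 colon samples of mice labelled as control, and the labels do not say whether these carried the floxed allele or Cre. All mice were untreated, were kept on normal chow and had a mixed CD-1/129/C57BL/6 background, and the labels give neither age nor sex. The descriptions of the HDAC2 KO samples name HDAC1 as well, while their titles and genotype labels name HDAC2 alone. The labels also differ on the material, naming epithelium in the source field and colon in the protocol.

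Macrophages and dendritic cells are the phagocytes and antigen-presenting cells of the gut wall, and most lie in the lamina propria beneath the epithelium. Colonic macrophages are renewed largely from blood monocytes, depend on the growth factor receptor CSF1R and take up microbes and dying cells with scavenger, lectin, complement and Fc receptors. Dendritic cells carry antigen to lymphoid tissue and depend in part on the receptor FLT3. Villin is not a gene of these cells, so the deletion was aimed at the cells around them. Several of the 43 genes are also used by lymphocytes, among them Ptprc, Laptm5, Itgb2 and Lcp1. In RNA of whole tissue, fewer cells of a type and less RNA per cell cannot be told apart.

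Each sample was measured on 1 array as RMA log2 signal, with array medians of 6.17 to 6.21, and the 3 arrays per group limit the precision. Nothing in the labels says whether replicates were processed separately after collection, so p-values measure the spread between these samples. Hdac2 itself read 9.05, 8.77 and 9.08 on HDAC2 KO arrays, against 9.22, 9.15 and 9.17 on control arrays, at the brighter of its probe sets that bind 1 transcript, a difference of -0.22 (limma adjusted p = 0.253). A brighter Hdac2 probe set able to bind several transcripts differed by -0.21 (limma adjusted p = 0.0768), so the targeted gene was lower on every HDAC2 KO array at both probe sets without passing the test. The dimmest Hdac2 probe set differed by -0.08 with overlapping groups (limma adjusted p = 0.867). Hdac1 read 10.47, 10.41 and 10.52 on HDAC2 KO arrays, against 10.35, 10.29 and 10.31 on control arrays, and was thus above control on every HDAC2 KO array, with a difference of 0.15 (limma adjusted p = 0.181). The position of these probes in the gene, inside or outside the deletion, was not analysed here. The Xist probe set of highest signal lay between 11.52 and 11.56 on HDAC2 KO arrays, against 11.99 to 12.04 on control arrays. Kdm5d, a Y-linked gene, lay at its brightest probe set between 7.36 and 7.84 on HDAC2 KO arrays, against 6.90 to 7.02 on control arrays. Its other probe sets were dim and differed by 0.05 each (limma adjusted p = 0.8 and 0.854). Signals of Xist and Kdm5d were thus present on all 6 arrays, although the source labels number a single mouse for each array. Their balance differed between the groups, and its part in the results below was not tested. Epithelial markers were bright throughout, with a mean of 13.29 to 13.33 over 12 genes on HDAC2 KO arrays, against 13.17 to 13.19 on control arrays. Smooth muscle markers averaged 11.28 to 11.33 over 8 genes on HDAC2 KO arrays, against 11.14 to 11.17 on control arrays. Fibroblast markers averaged 10.05 to 10.11 on HDAC2 KO arrays, against 10.07 to 10.11 on control arrays. Signal of tissue other than epithelium was thus present on all arrays.

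Several genes found in most leukocytes fell in HDAC2 KO colon, whereas most genes typical of macrophages or dendritic cells alone did not pass the test. Not passing does not show that a gene was unchanged. In simulated data the fit found 0 of 50 differences of 0.2 and 9 of 50 of 0.3. Far fewer probe sets differed there than were called in the data, which made the adjustment stricter. These counts therefore do not give the share found in the data. Called here means an adjusted p under 0.05 in limma, fitted over all 45037 probe sets with Benjamini-Hochberg adjustment. Of the 74 member probe sets, 11 were called lower in HDAC2 KO, 2 were called higher and 61 were not called. Over the whole array 3.80% of probe sets were called, 2.08% lower and 1.72% higher. The 11 lower probe sets belong to 7 genes, Ptprc, Laptm5, Lcp1, Itgb2, Fcgr2b, Lyz2 and Csf1r, the 2 higher ones are Cd14 and Clec7a, and 34 genes had no called probe set. Among the 63 probe sets that bind 1 transcript 6 were lower, against 1.99% of such probe sets on the array, and 2 were higher, against 1.63%. Among the 11 able to bind several transcripts 5 were lower, against 2.96%, and 0 were higher in limma (0 also at an unadjusted p under 0.05), against 2.52%. The count of lower probe sets was 7 without HDAC2 KO replicate 1 and 6 without control replicate 2. Of all probe sets 1.18% and 1.01% were lower in these fits. Both Cd14 and Clec7a lost their call without HDAC2 KO replicate 1 or any single control array. The count of higher probe sets in limma was then 0 without HDAC2 KO replicate 1, control replicate 2 or control replicate 3 (4, 4 and 5 at an unadjusted p under 0.05) and 1, Cd163, without control replicate 1. Of all probe sets 0.81%, 0.788%, 0.744% and 0.742% were higher in these fits, in that order.

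**Figure D1:**
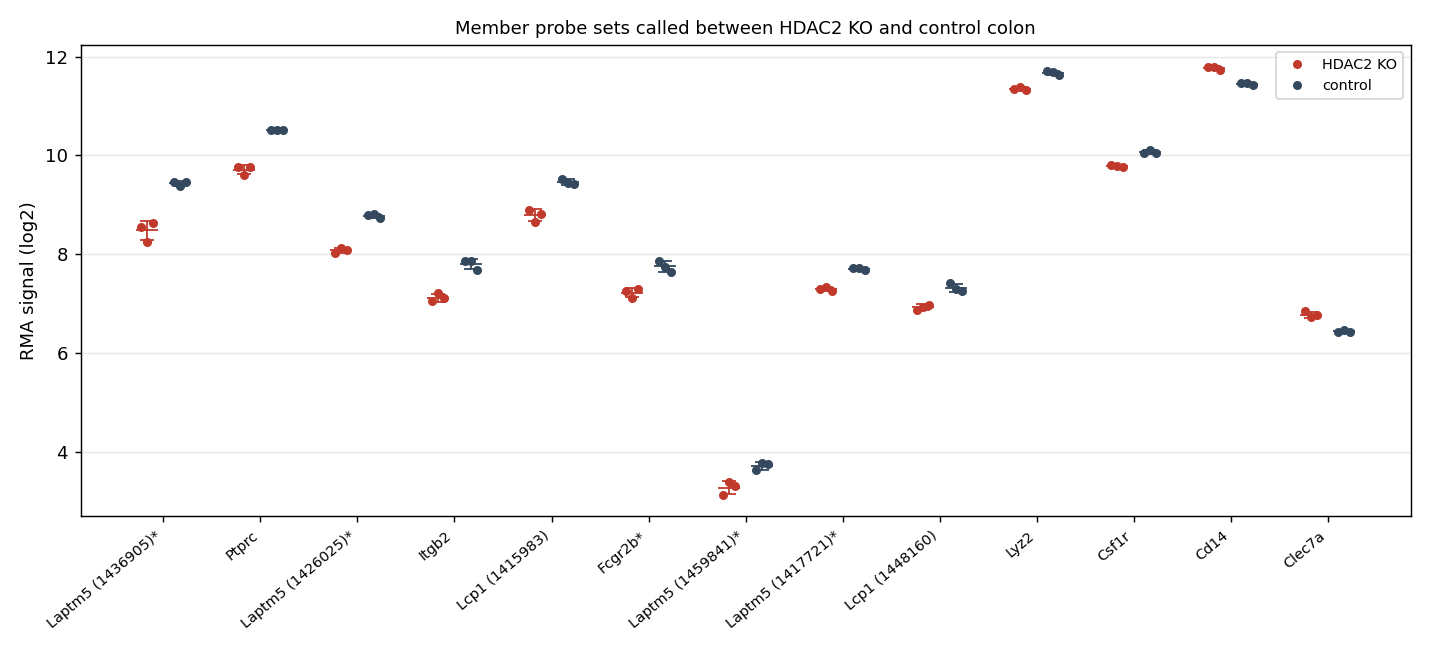
RMA log2 signal of the 13 called member probe sets on each array, with dots for arrays, horizontal marks for group means and bars for 1 SD (3 HDAC2 KO arrays in red on the left of each pair, 3 control arrays in dark blue on the right). Numbers in brackets identify probe sets of the same gene, an asterisk marks probe sets able to bind several transcripts, and the groups do not overlap at any of the 13.

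Differences of the members lay below 0 more often than above it. The difference, HDAC2 KO minus control, was below 0 for 55 of the 74 probe sets, against 48.3% on the array, and its median was -0.14, against 0.0041 over all probe sets. All 3 HDAC2 KO arrays read below all 3 control arrays at 28 member probe sets, against 11.3% on the array, and above them at 4, against 11.9%. At an unadjusted p under 0.05, 29 member probe sets were lower and 4 higher, while 7377 of all 45037 probe sets passed in either direction. With 1 probe set per gene (the brightest that binds 1 transcript, or for Aif1 its sole probe set), 5 of 43 genes were lower, against 2.58% of all genes, and 2 were higher, against 2.38%. The mean log2 signal over these 43 probe sets was 7.376, 7.382 and 7.364 on HDAC2 KO arrays, against 7.487, 7.505 and 7.448 on control arrays, so the groups did not overlap. In a fit with 1 probe set per gene above the 40th percentile of signal, which kept 25 of the 43 genes, 11 were lower, against 8.20% of the genes tested, and 1 was higher, against 9.68%.

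**Figure D2:**
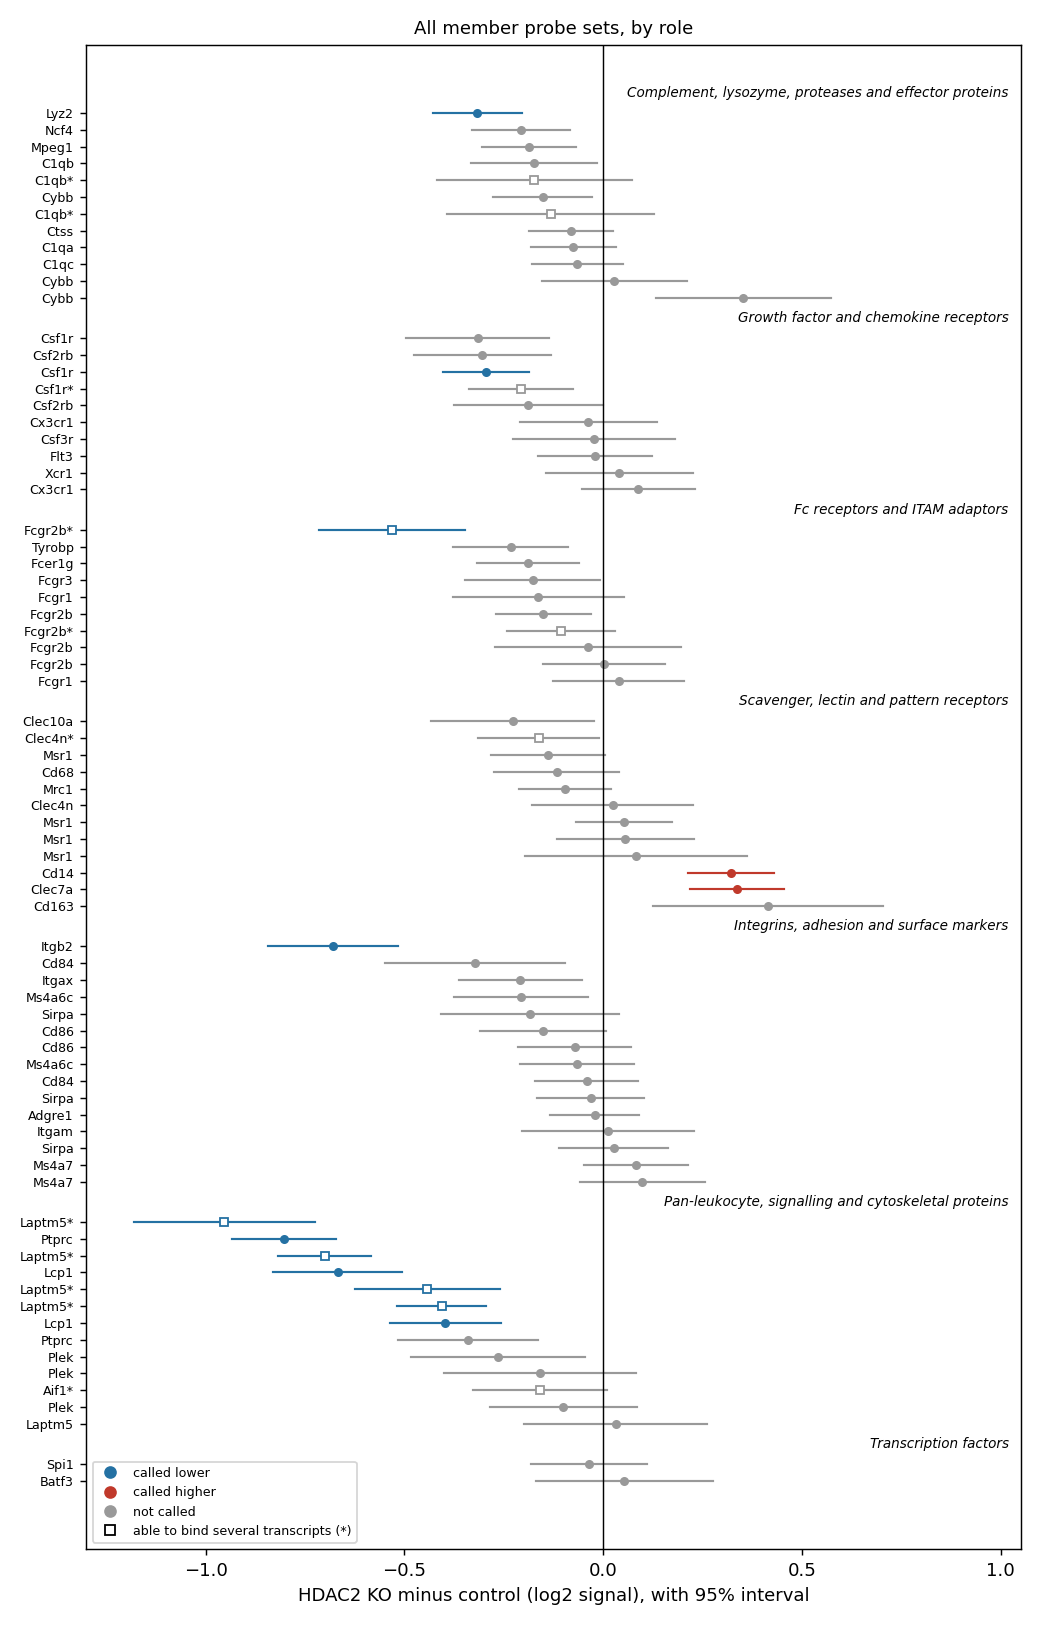
Difference of each of the 74 member probe sets, HDAC2 KO minus control in log2 signal, with its 95% interval from limma, grouped by the role of the gene. Blue marks the 11 probe sets called lower, red the 2 called higher and grey the 61 not called. Open squares with an asterisk mark the 11 able to bind several transcripts. Most blue points are of pan-leukocyte proteins, 4 of them probe sets of Laptm5.

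Proteins of the general leukocyte surface and cytoskeleton held most of the called probe sets. Lower were 7 of 13, against 2.08% over the array, with a median difference of -0.40. Of these 7, 4 are probe sets of Laptm5 able to bind several transcripts. With 1 probe set per gene, 2 of 5 genes were lower, against 2.58% of all genes, and the median was -0.26. Ptprc encodes CD45, the tyrosine phosphatase on all nucleated blood cells, and read 9.77, 9.61 and 9.76 on HDAC2 KO arrays, against 10.51, 10.52 and 10.51 on control arrays. Every HDAC2 KO array was thus well below the narrow control range, a fall of 0.80 on the log2 scale (SE 0.056, limma adjusted p = 0.000356), or 1.74-fold. A dim second Ptprc probe set differed by -0.34 (limma adjusted p = 0.0582). Lcp1, which encodes the actin-bundling protein L-plastin, read 8.90, 8.66 and 8.81 on HDAC2 KO arrays, against 9.52, 9.44 and 9.42 on control arrays. The groups were separated by more than either group's spread, and Lcp1 fell 1.59-fold (SE 0.070 on the log2 scale, limma adjusted p = 0.00242). Its second probe set fell 1.32-fold (limma adjusted p = 0.0128; 0.0702 with the replicate number as a block). That second call was also lost without HDAC2 KO replicate 1, control replicate 1 or control replicate 2, at adjusted p from 0.0530 to 0.0568. Plek, encoding the protein kinase C substrate pleckstrin, had 3 probe sets with differences from -0.26 to -0.10 and overlapping groups. Aif1, the macrophage protein IBA1, was measured at 1 probe set, which can bind several transcripts, and differed by -0.16 (SE 0.072, limma adjusted p = 0.340).

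Laptm5, a lysosomal membrane protein of blood cells, read differently at different probe sets. The 4 probe sets able to bind several transcripts fell 1.94-fold, 1.63-fold, 1.32-fold and 1.36-fold, at limma adjusted p of 0.00217, 0.000408, 0.00426 and 0.0239, and no HDAC2 KO array overlapped a control array at any of them. The brightest of the 4 read 8.56, 8.25 and 8.63 on HDAC2 KO arrays, against 9.47, 9.38 and 9.46 on control arrays. The sole Laptm5 probe set that binds 1 transcript read 7.74, 7.79 and 7.44 on HDAC2 KO arrays, against 7.54, 7.69 and 7.65 on control arrays. There the groups overlapped and the difference was 0.03 (95% interval -0.20 to 0.26, limma adjusted p = 0.923). The call of the dimmest of the 4, at 3.13, 3.38 and 3.30 on HDAC2 KO arrays, was lost without HDAC2 KO replicate 1, HDAC2 KO replicate 3, control replicate 2 or control replicate 3, at adjusted p from 0.0608 to 0.107.

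**Figure D3:**
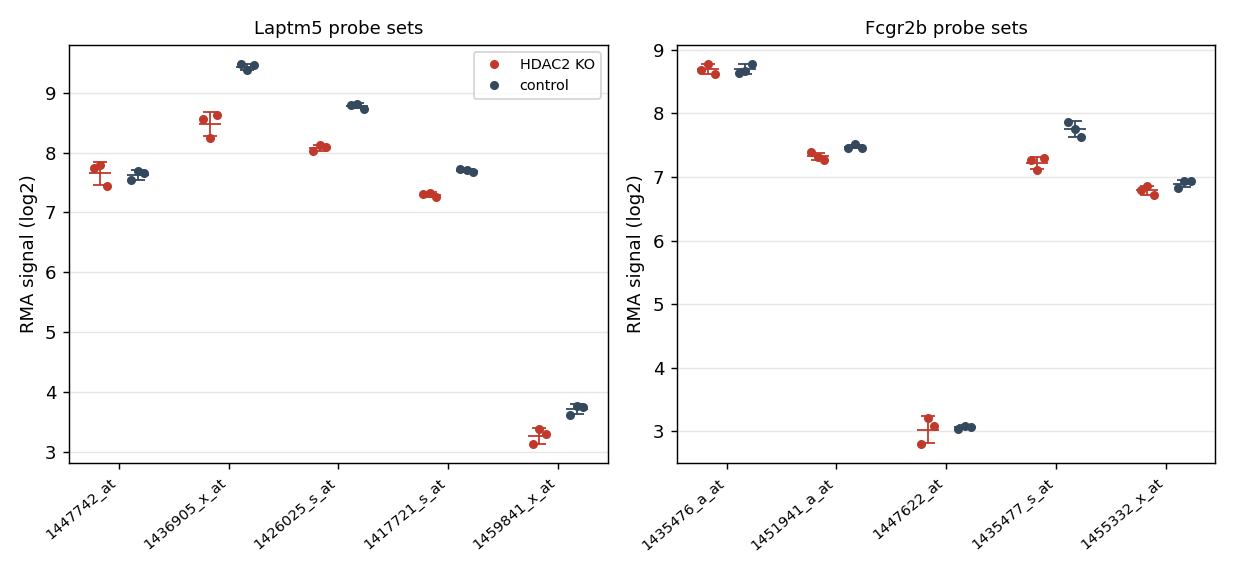
RMA log2 signal of the 5 probe sets of Laptm5 (left) and the 5 of Fcgr2b (right) on each array, with dots for arrays, horizontal marks for means and bars for 1 SD (HDAC2 KO in red on the left of each pair, control in dark blue on the right). The 4 Laptm5 probe sets with the suffix _s_at or _x_at are lower in HDAC2 KO while the remaining Laptm5 probe set overlaps, and of the Fcgr2b probe sets the one with the suffix _s_at shows the widest gap.

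Expression of many of these genes depends on the transcription factor PU.1, encoded by Spi1, which binds a purine-rich motif known as the PU box. Promoters of the called genes are shown so that the motif can be looked for in them. Windows in the RefSeq table of build GRCm38.p6, running from 250 bases before to 50 after a transcript's start, were found for 29 of the 43 genes and for 6 of the 9 called ones, not including Itgb2, Csf1r and Cd14. The 5 of these 6 with the smallest p are printed, so that of Clec7a is not, and of the 2 overlapping windows of Ptprc the first listed is given. Those of Ptprc (chr1:138175256-138175555, minus strand), Laptm5 (chr4:130913066-130913365, plus strand), Lcp1 (chr14:75130873-75131172 and chr14:75136175-75136474, plus strand), Fcgr2b (chr1:170976022-170976321, minus strand) and Lyz2 (chr10:117282223-117282522, minus strand) follow, 5′ to 3′, with the motif GAGGAA on either strand in capitals.
Ptprc: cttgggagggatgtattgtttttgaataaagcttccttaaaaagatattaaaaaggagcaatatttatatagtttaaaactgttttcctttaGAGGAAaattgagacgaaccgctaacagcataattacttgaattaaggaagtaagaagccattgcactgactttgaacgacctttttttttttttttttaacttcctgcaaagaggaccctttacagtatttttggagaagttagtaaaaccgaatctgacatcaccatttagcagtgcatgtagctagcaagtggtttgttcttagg
Laptm5: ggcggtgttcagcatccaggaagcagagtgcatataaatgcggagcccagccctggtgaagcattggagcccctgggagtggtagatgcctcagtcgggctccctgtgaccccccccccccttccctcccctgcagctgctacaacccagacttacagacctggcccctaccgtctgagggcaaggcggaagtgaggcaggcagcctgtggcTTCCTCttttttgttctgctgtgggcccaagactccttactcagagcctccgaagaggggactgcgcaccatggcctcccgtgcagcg
Lcp1, first start: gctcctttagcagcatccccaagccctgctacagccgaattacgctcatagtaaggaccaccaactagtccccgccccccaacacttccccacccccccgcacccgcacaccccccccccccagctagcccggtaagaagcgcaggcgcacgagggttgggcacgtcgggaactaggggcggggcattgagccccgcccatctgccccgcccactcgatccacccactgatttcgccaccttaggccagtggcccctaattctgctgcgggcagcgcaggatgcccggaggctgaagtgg
Lcp1, second start: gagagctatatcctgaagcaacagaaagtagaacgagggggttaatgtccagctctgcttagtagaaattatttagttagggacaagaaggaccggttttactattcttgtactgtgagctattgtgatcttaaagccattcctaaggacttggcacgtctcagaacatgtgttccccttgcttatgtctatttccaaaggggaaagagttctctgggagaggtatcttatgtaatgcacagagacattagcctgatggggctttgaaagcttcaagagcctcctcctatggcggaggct
Fcgr2b: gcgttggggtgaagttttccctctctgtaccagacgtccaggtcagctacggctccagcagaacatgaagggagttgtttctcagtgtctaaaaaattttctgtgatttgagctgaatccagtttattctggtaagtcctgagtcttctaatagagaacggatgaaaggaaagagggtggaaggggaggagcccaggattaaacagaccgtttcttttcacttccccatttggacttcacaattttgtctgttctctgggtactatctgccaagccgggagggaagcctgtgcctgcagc
Lyz2: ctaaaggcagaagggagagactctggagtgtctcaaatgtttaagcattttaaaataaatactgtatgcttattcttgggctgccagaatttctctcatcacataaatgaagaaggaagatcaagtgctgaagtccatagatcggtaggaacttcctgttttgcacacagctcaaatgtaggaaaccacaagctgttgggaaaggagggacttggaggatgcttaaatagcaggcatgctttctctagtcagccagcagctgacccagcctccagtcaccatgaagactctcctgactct

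Of these windows, that of Ptprc and that of Laptm5 each held 1 copy of GAGGAA, in Laptm5 on the reverse strand, and the windows of Lcp1, Fcgr2b and Lyz2 did not hold it. The related motif AGGAAGT, which overlaps GAGGAA in part, occurred in 2 copies in the Ptprc window and in 1 copy in the Lyz2 window. Over the 34 windows of the 29 genes, GAGGAA was found in 20, or 58.8%, against 28.3% of the 32851 windows in the table. AGGAAGT was found in 9 of the 34, against 9.35% of all windows, and GAGGAAGT, which contains both, in 2, against 3.20%, those of C1qc and Ctss. Some genes have several windows that overlap, and a match of letters describes the sequence alone. GAGGAA was found for Clec7a, which was higher in HDAC2 KO, and for Ptprc, which was lower.

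Among integrins and other surface markers 1 of 15 probe sets was called lower, against 2.08% over the array. Itgb2 encodes the beta 2 chain shared by the leukocyte integrins, including those of T cells, and read 7.05, 7.21 and 7.11 on HDAC2 KO arrays, against 7.86, 7.86 and 7.68 on control arrays. All HDAC2 KO values lay below all control values, and Itgb2 fell 1.60-fold (SE 0.070 on the log2 scale, limma adjusted p = 0.00217). The alpha chains that pair with it in myeloid cells were not called. Itgax, the dendritic cell integrin CD11c, read 6.18, 6.26 and 6.40 on HDAC2 KO arrays, against 6.44, 6.51 and 6.52 on control arrays, a difference of -0.21 (SE 0.066, limma adjusted p = 0.166). Itgam, the macrophage integrin CD11b, was dim at 4.20 ± 0.16 in HDAC2 KO and 4.18 ± 0.11 in control (SD, n = 3 each), a difference of 0.01 (95% interval -0.20 to 0.23). Adgre1, which encodes the mouse macrophage marker F4/80, read 6.43, 6.49 and 6.48 on HDAC2 KO arrays, against 6.45, 6.50 and 6.52 on control arrays. The ranges of Adgre1 overlapped, with a difference of -0.02 (95% interval -0.13 to 0.09).

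The remaining surface markers overlapped between the groups at nearly all their probe sets. Sirpa, the phagocyte receptor for the CD47 signal, had 3 probe sets with differences between -0.18 and 0.03. Ms4a7, a tetraspan protein of macrophages, was 0.08 and 0.10 higher at its probe sets (limma adjusted p = 0.544 and 0.543), and its relative Ms4a6c differed by -0.06 and -0.21 (0.684 and 0.205). At the dimmer Ms4a6c probe set all HDAC2 KO values lay below all control values. Cd84, a receptor of the SLAM family on leukocytes, differed by -0.04 at its brighter probe set and by -0.32 at a dim one near 4 (limma adjusted p = 0.788 and 0.147). Cd86, the costimulatory ligand on antigen-presenting cells, differed by -0.07 and -0.15 (limma adjusted p = 0.646 and 0.328).

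Of the receptors for growth factors and chemokines, Csf1r was called. It encodes the receptor for CSF1 and IL-34 on which macrophages depend, and its brightest probe set read 9.80, 9.78 and 9.76 on HDAC2 KO arrays, against 10.05, 10.11 and 10.05 on control arrays. Both groups were tight and did not overlap, and Csf1r fell 1.23-fold (SE 0.046 on the log2 scale, limma adjusted p = 0.0146; 0.0632 with the replicate number as a block). Its other probe sets differed by -0.32 and, at that able to bind several transcripts, by -0.21 (limma adjusted p = 0.0799 and 0.113), again with no overlap between the groups. Leaving out HDAC2 KO replicate 1, HDAC2 KO replicate 3 or any of the 3 control arrays ended this call, at adjusted p from 0.0519 to 0.0767. Csf2rb, the shared beta chain of the receptors for GM-CSF, IL-3 and IL-5, read 7.14, 7.35 and 7.19 on HDAC2 KO arrays, against 7.49, 7.63 and 7.47 on control arrays. Its groups did not overlap, but the difference of -0.30 (SE 0.074) had a limma adjusted p of 0.0786, and Csf2rb2 is a close relative whose signal may be shared. A dimmer Csf2rb probe set differed by -0.19 (limma adjusted p = 0.307).

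Receptors that separate the branches of the lineage gave no called probe set. Flt3, the dendritic cell growth factor receptor, differed by -0.02 (95% interval -0.16 to 0.12). Cx3cr1, the fractalkine receptor of resident intestinal macrophages, read 6.27, 6.48 and 6.33 on HDAC2 KO arrays, against 6.50, 6.37 and 6.33 on control arrays, a difference of -0.04 (95% interval -0.21 to 0.14), and its dim second probe set differed by 0.09 (limma adjusted p = 0.554). Xcr1, the chemokine receptor of cross-presenting dendritic cells, and Csf3r, the G-CSF receptor of neutrophils, were dim, at 4.22 ± 0.16 and 5.02 ± 0.17 in HDAC2 KO and 4.18 ± 0.025 and 5.05 ± 0.056 in control (SD, n = 3 each). The 95% interval of the difference ran from -0.145 to 0.227 for Xcr1 and from -0.228 to 0.182 for Csf3r. Of the 43 genes, 7 lay below the array-wide median of 6.18 at their brightest probe set that binds 1 transcript, where RMA compresses differences.

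Fc receptors and their adaptors carried small differences, with a median of -0.16. Of 10 probe sets 1 was called lower, against 2.08% over the array. With 1 probe set per gene 0 of 5 were called in limma (3 lower at an unadjusted p under 0.05). Fcer1g and Tyrobp encode the short adaptors FcR gamma and DAP12, whose cytoplasmic ITAM motifs pass on signals from many receptors of myeloid cells. Tyrobp read 7.84, 7.88 and 7.87 on HDAC2 KO arrays, against 8.02, 8.21 and 8.04 on control arrays, a difference of -0.23 (SE 0.062, limma adjusted p = 0.105). Fcer1g read 7.57, 7.65 and 7.59 on HDAC2 KO arrays, against 7.82, 7.84 and 7.71 on control arrays, a difference of -0.19 (SE 0.055, limma adjusted p = 0.135). Neither adaptor overlapped between the groups, and neither passed the test. Fcgr3, an activating receptor for IgG, differed by -0.18 (SE 0.073, limma adjusted p = 0.283) without overlap. Fcgr1, the high-affinity IgG receptor, overlapped at both probe sets, with differences of 0.04 and -0.16.

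Fcgr2b encodes the inhibitory IgG receptor, which B cells carry as well as macrophages, and its 5 probe sets differed among themselves. The called probe set, which can bind several transcripts, read 7.26, 7.11 and 7.29 on HDAC2 KO arrays, against 7.87, 7.75 and 7.63 on control arrays. It fell 1.45-fold (SE 0.079 on the log2 scale, limma adjusted p = 0.0118; 0.0575 without control replicate 2). The brightest carries the suffix _a_at and read 8.68, 8.78 and 8.61 on HDAC2 KO arrays, against 8.63, 8.66 and 8.78 on control arrays. The groups overlapped there, and the difference was 0.00 (95% interval -0.15 to 0.16). The other 3 differed by -0.15, -0.11 and -0.04, at limma adjusted p of 0.192, 0.436 and 0.904.

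Pattern and scavenger receptors were the role in which genes rose. Of 12 probe sets 2 were called higher, against 1.72% over the array, and the median was 0.04. None was called lower in limma, and 2 were lower at an unadjusted p under 0.05. Cd14, the coreceptor for bacterial lipopolysaccharide, read 11.79, 11.80 and 11.73 on HDAC2 KO arrays, against 11.46, 11.47 and 11.43 on control arrays. It rose 1.25-fold with no overlap (SE 0.047 on the log2 scale, limma adjusted p = 0.0108). Cd14 lay at percentile 97.1 of signal on the array, against 55.3 for Cd68 and 54.4 for Adgre1, though Lyz2 and Ctss were also bright. Which cells gave the Cd14 signal was not tested. Clec7a, the beta-glucan receptor Dectin-1, read 6.84, 6.72 and 6.77 on HDAC2 KO arrays, against 6.43, 6.46 and 6.43 on control arrays, and rose 1.26-fold (SE 0.051, limma adjusted p = 0.0125; 0.0590 with the replicate number as a block). For both, the call was lost without HDAC2 KO replicate 1 or any single control array, at adjusted p from 0.0516 to 0.0585 for Cd14 and from 0.0531 to 0.0688 for Clec7a. Cd163, the haemoglobin scavenger receptor of tissue macrophages, read 6.33, 6.21 and 6.09 on HDAC2 KO arrays, against 6.08, 5.70 and 5.61 on control arrays. Its difference of 0.42 was the highest of the 74, with a wide 95% interval of 0.126 to 0.705 (limma adjusted p = 0.141), and the lowest HDAC2 KO array lay just above the highest control array.

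Other receptors of this role differed by less than 0 at their brightest probe set that binds 1 transcript, apart from Clec4n. Mrc1, the mannose receptor CD206, read 6.93, 6.96 and 6.88 on HDAC2 KO arrays, against 7.06, 7.01 and 6.98 on control arrays, a difference of -0.10 (SE 0.049, limma adjusted p = 0.398). Cd68, a lysosomal glycoprotein widely used as a macrophage marker, read 6.52, 6.45 and 6.45 on HDAC2 KO arrays, against 6.56, 6.72 and 6.49 on control arrays. The Cd68 values overlapped, with a difference of -0.12 (SE 0.067, limma adjusted p = 0.462). Clec10a, a galactose-binding lectin of macrophages and dendritic cells, differed by -0.23 (SE 0.087, limma adjusted p = 0.249). Msr1, the class A scavenger receptor, had 4 probe sets between -0.14 and 0.08, all overlapping. Clec4n, which encodes Dectin-2, differed by 0.02 at the probe set that binds 1 transcript and by -0.16 at that able to bind several (limma adjusted p = 0.934 and 0.272).

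Among effector proteins of phagocytes 1 of 12 probe sets was called lower, against 2.08% over the array. The differences of 10 of the 12 lay below 0. Lyz2, the lysozyme of macrophages and other phagocytes, read 11.34, 11.38 and 11.33 on HDAC2 KO arrays, against 11.70, 11.68 and 11.62 on control arrays. It fell 1.24-fold with no overlap (SE 0.047 on the log2 scale, limma adjusted p = 0.0124; 0.0528 with the replicate number as a block). The Lyz2 call was also lost without HDAC2 KO replicate 1, control replicate 1 or control replicate 2, at adjusted p from 0.0576 to 0.0728, and binding of the close paralog Lyz1, a Paneth cell gene, was not tested. Ctss, the protease cathepsin S that processes the invariant chain, was the brightest member at 12.77 ± 0.022 in HDAC2 KO and 12.85 ± 0.027 in control (SD, n = 3 each). Its difference was -0.08 (95% interval -0.19 to 0.02).

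The C1q chains, made in the gut mainly by macrophages and used to start the classical complement pathway, were not called at any of their 5 probe sets. C1qa read 8.91, 8.91 and 8.90 on HDAC2 KO arrays, against 9.01, 8.99 and 8.94 on control arrays, and C1qc read 7.75, 7.69 and 7.72, against 7.80, 7.83 and 7.73. Their differences were -0.07 (95% interval -0.18 to 0.03) and -0.06 (-0.18 to 0.05). C1qb differed by -0.17 at the probe set that binds 1 transcript (SE 0.068, limma adjusted p = 0.257) and by -0.13 and -0.17 at those able to bind several. Mpeg1, the pore-forming protein perforin-2 of phagocytes, averaged 8.748 ± 0.02 in HDAC2 KO and 8.935 ± 0.063 in control (SD, n = 3 each). Its groups did not overlap, and the difference was -0.19 (SE 0.051, limma adjusted p = 0.114).

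No subunit of the phagocyte NADPH oxidase was called, and their differences had both signs. Ncf4, its p40phox subunit, read 7.30, 7.27 and 7.27 on HDAC2 KO arrays, against 7.54, 7.51 and 7.41 on control arrays, a difference of -0.21 (SE 0.052, limma adjusted p = 0.0895) without overlap. Cybb, which encodes the catalytic subunit gp91phox, gave 3 different readings: 0.03 at the brightest probe set, -0.15 at the next and 0.35 at the dimmest (limma adjusted p = 0.909, 0.210 and 0.106). At the dimmest all HDAC2 KO values lay above all control values, and at the next all lay below. Neither transcription factor was called, with 0 of 2 also at an unadjusted p under 0.05 in limma. Spi1, encoding PU.1, read 6.85, 6.87 and 6.72 on HDAC2 KO arrays, against 6.77, 6.89 and 6.88 on control arrays, a difference of -0.04 (95% interval -0.18 to 0.11). Batf3, required for cross-presenting dendritic cells, differed by 0.05 (-0.17 to 0.28), with HDAC2 KO replicate 1 at 6.44 above the other arrays.

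Agreement between probe sets could be looked at for the 18 genes that have several. In 8 of them the differences had both signs, and no gene was called in opposite directions. Of the 13 called probe sets, 6 were called under all alternatives in which they were tested, namely those of Ptprc and Itgb2, the brighter one of Lcp1 and 3 of Laptm5.

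Further lists of marker genes, with 1 probe set per gene, give the surroundings of these values. Counts in them stand beside 2.58% of all genes called lower and 2.38% called higher. Among 26 other macrophage genes 3 were lower: Timd4, a receptor for phosphatidylserine on long-lived macrophages (-1.02, limma adjusted p = 0.000803), Hpgds, a prostaglandin D synthase (-0.46, 0.0122), and Apoe, the apolipoprotein E gene (-0.31, 0.0158). Their list median was -0.067, near the -0.071 of the 43 genes, against 0.0062 for all genes with a symbol. Among 18 other dendritic cell genes 3 were lower, with a median of -0.095: Ccr7 (-0.86, limma adjusted p = 0.000354), the homing receptor of migratory dendritic cells and also of naive T cells, Fscn1 (-0.74, 0.000795), the actin bundler fascin of mature dendritic cells, and Klrd1 (-0.47, 0.00912), which NK cells also express. None of 20 monocyte and neutrophil genes was called in limma, with 1 lower and 3 higher at an unadjusted p under 0.05. Over the array 7377 of 45037 probe sets lay under that threshold. Of the 20 genes, 15 lay below the array-wide median signal. Of 28 further pan-leukocyte genes 12 were lower and 16 were not called, with a median of -0.28. Among these were Itgal, Coro1a and Rac2, which encode the integrin chain LFA-1 alpha, the actin regulator coronin and a haematopoietic GTPase, at -0.95, -0.90 and -0.74 (limma adjusted p between 6.73e-05 and 0.000313).

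Of 16 growth factor and chemokine genes that recruit or sustain these cells 2 were higher, against 2.38% of all genes, 2 were lower, against 2.58%, and 12 were not called, with a median of -0.011. Ccl9, a chemokine for myeloid cells, rose by 0.57 (limma adjusted p = 0.000859), and Cx3cl1, the ligand of CX3CR1, rose by 0.38 (0.00600). Ccl8 fell by 0.34 (limma adjusted p = 0.0156) and Kitl, the mast cell growth factor gene, fell by 0.28 (0.0295). Of 7 MHC class II genes Cd74, the invariant chain, was lower (-0.34, limma adjusted p = 0.0102) and H2-DMb2 higher (0.25, 0.0479).

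Most markers of lymphocytes and some of mast cells were also lower in HDAC2 KO, where 2.58% of all genes were lower. Of 11 T cell markers 8 were lower, with a median of -0.57 and a summed linear signal of 1359 to 1583 on HDAC2 KO arrays, against 1954 to 2048 on control arrays. Of 13 B cell and plasma cell markers 10 were lower, with a median of -0.43 and sums of 11649 to 12506 on HDAC2 KO arrays, against 14994 to 15153. Of 10 mast cell markers 3 were lower and 7 were not called, with a median of -0.17 and sums of 1644 to 1755 on HDAC2 KO arrays, against 2425 to 2515 on control arrays. The proteases Mcpt1 and Mcpt2 had the largest differences of that list, -1.94 and -1.70 (limma adjusted p = 1.61e-05 and 3.01e-05). T cell markers Cd3g and Cd3d differed by -1.84 and -1.37, more than any of the 74 member probe sets. How much of the fall of Ptprc, Laptm5, Itgb2 and Lcp1 lies in lymphocytes was not tested. Among lists of other tissue, 7 of 8 adipocyte genes were lower and 1 higher. Of 8 endothelial genes 3 were lower, and of 8 fibroblast genes 1, against 2.58% of all genes. Of 12 epithelial genes 2 were higher, and of 8 smooth muscle genes 1, against 2.38% of all genes. None of 3 erythroid genes was called in limma, with 1 lower at an unadjusted p under 0.05. The adipocyte sum was 3453 to 3672 on HDAC2 KO arrays, against 14657 to 15346 on control arrays, and its part in the results for the 43 genes was not tested.

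**Figure D4:**
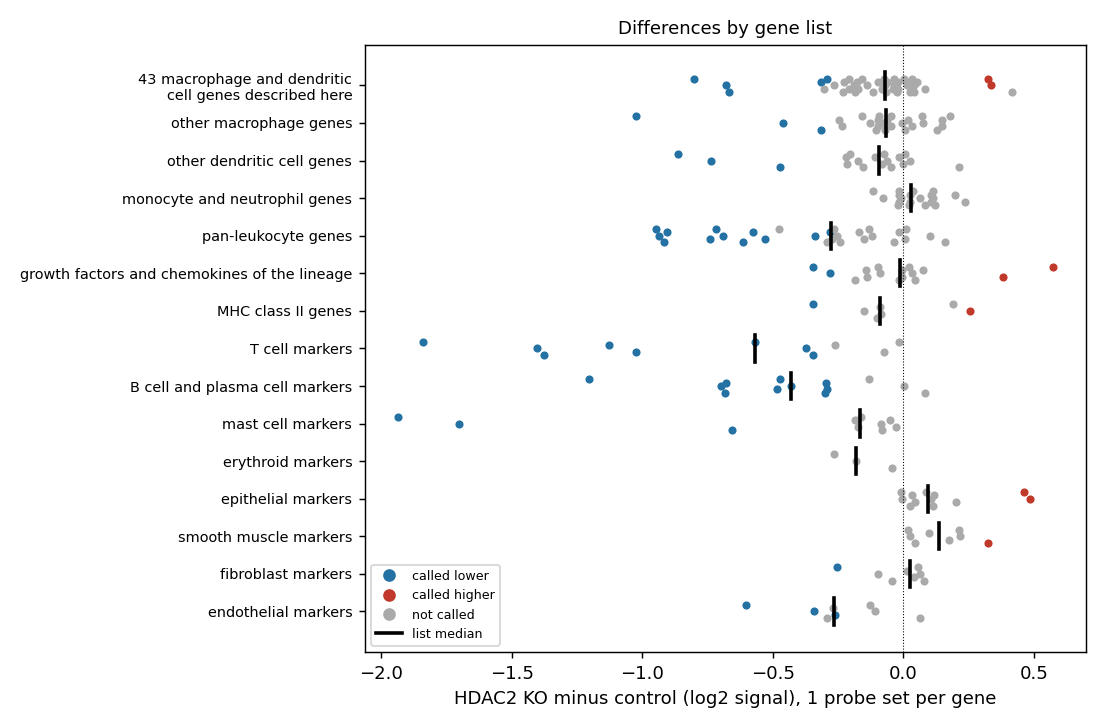
Difference of each gene, HDAC2 KO minus control in log2 signal at 1 probe set per gene, for the 43 genes described here and for further marker lists (adipocyte markers, with a median of -1.7, are not drawn). Dots are genes, blue for called lower, red for called higher and grey for not called, and black bars are list medians, which lie at -0.071 for the 43 genes, -0.28 for further pan-leukocyte genes and -0.57 for T cell markers.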

How the data were processed

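RNA of 6 mouse colon samples was measured on one-colour Affymetrix arrays. The deposited log2 values were made by the authors with RMA, of unstated version, per the submitters' processing notes. RMA corrects background, quantile-normalizes and summarises probes per probe set, which hides any change in the total amount of RNA. That the scale is log2 was read from the values, which lie between 2.39 and 14.6. No detection calls were used here, and scan dates were not analysed.

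Of 45101 probe sets 64 controls were left out. Names came from a platform annotation of 2016, which gives 1 symbol for 34945 probe sets, several for 932 and none for 9160. Entrez identifiers matched RefSeq (GRCm38.p6) for 34741 probe sets, and 0 symbols changed.

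All 45037 probe sets were fitted with limma 3.58.1 in R 4.3.3 (lmFit, eBayes, group as sole term, no signal filter), since the rule takes every probe set of a gene. Intervals of 95% use limma's moderated SE. Adjusted p-values are Benjamini-Hochberg over the array, and a call needs less than 0.05. The fit was tested on simulated data, where it recovered 0, 9, 24 and 46 of 50 differences of 0.2, 0.3, 0.5 and 1. Only these probe sets were changed there, far fewer than the 1712 called in the data, which made the adjustment stricter. The members and lists were chosen with earlier results of these data known. All 43 genes are named. Genes named from a further list are among the 4 of smallest p in it, and not all of these are named. A result for 1 of them is not reported here. For the further lists, the brightest probe set binding 1 transcript stood for a gene, or the brightest of the others where it had none, as for S100a8.

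Labels number the samples 1 to 3 in both groups. Over probe sets above the median signal, deviations from group means correlated between same-numbered arrays with r = 0.19, 0.29 and 0.15. Arrays of different number had r from -0.32 to 0.18, the highest for HDAC2 KO replicate 3 with control replicate 1. These values do not settle whether the numbers mark a pairing, so a fit blocked on the replicate number was an alternative. Other alternatives were signal filters, 1 probe set per gene, no probe sets able to bind several transcripts, other scalings, variance models, weights and thresholds, and leaving out each array.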

Additional observations from a re-analysis of the deposited data

How the results depend on the processing

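Of 17 alternatives, 11 changed the settings and 6 left out an array each. The number of member probe sets called lower was 11. Of 34 tested with a filter at the 60th percentile, 18 were lower, against 7.14% of all probe sets tested. Robust variances fitted with an intensity trend gave 18, against 3.76%. Leaving out probe sets able to bind several transcripts gave 6, against 1.92%. An adjusted p under 0.01 gave 6, against 0.881%. The number called lower lay between 6 and 13 when arrays were left out, where 0.988% to 1.75% of all probe sets were lower. With the replicate number as a block it was 8, against 1.22% of all probe sets. The calls of Csf1r, Lyz2, Clec7a and the dimmer Lcp1 probe set were then lost. The number called higher was 2. It became 1 under that 60th percentile filter, where 7.97% of all probe sets tested were higher. With 1 probe set per gene and a filter it was 1, against 9.68% of the genes tested. The replicate block gave 1, against 0.844%, and the intensity trend gave 4 (adding Cd163 and Cybb), against 3.69%. At an adjusted p under 0.01 it was 0 (4 at an unadjusted p under 0.05 in limma), against 0.608%. Without single arrays it lay between 0 and 3, where 0.742% to 1.5% of all probe sets were higher. Over the array the 1712 calls became 2721 of 18015 under the 60th percentile filter, 3354 with the trend, 929 with the block and 671 at the stricter threshold, and 779 to 1466 without single arrays. With 1 probe set per gene and a filter, 11 of 25 genes were lower, against 8.20% of those tested, among them Tyrobp, Fcer1g, Ncf4, Mpeg1 and Csf2rb (adjusted p between 0.0117 and 0.0236). In that fit Laptm5 is represented by a probe set able to bind several transcripts, at -0.954 (adjusted p = 0.000299), against 0.03 at the probe set that binds 1 transcript.

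For the 7 genes called at their brightest probe set that binds 1 transcript, 94 of 117 refits kept call and direction and 23 lost the call. Ptprc, Itgb2 and Lcp1 kept theirs in all 17. For the other 36 genes, 523 of 571 refits did not change call or direction, 22 gained a call and 26 changed sign. Apart from Laptm5 in the fit above, the sign changes came from leaving out arrays, with ranges of -0.0348 to 0.0848 (Cybb), -0.0791 to 0.0759 (Csf3r), -0.0615 to 0.023 (Flt3), -0.0984 to 0.0122 (Cx3cr1), -0.0449 to 0.108 (Xcr1), -0.035 to 0.0832 (Fcgr1), -0.0423 to 0.0479 (Fcgr2b), -0.0291 to 0.109 (Clec4n), -0.0779 to 0.0721 (Itgam), -0.0173 to 0.0544 (Sirpa), -0.0738 to 0.00363 (Cd84), -0.0378 to 0.141 (Laptm5), -0.0758 to 0.0113 (Spi1) and -0.0591 to 0.126 (Batf3). Other scalings moved the median difference, HDAC2 KO minus control, over all probe sets by at most 0.0024. The cause of these changes was not tested.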
